A study of Mus musculus with 2 samples.

Results

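The miR-29 family of the mouse consists of 4 microRNA genes, Mir29a, Mir29b-1, Mir29b-2 and Mir29c, and these were followed in short RNA libraries from the hippocampus. They were chosen by name as the complete family, 4 of the 2202 microRNA genes in the count tables, and all 4 identifiers matched the GENCODE M21 annotation. The tissue was female B6CASTF1/J hippocampus, from a cross of C57BL/6J and CAST/EiJ mice, at an age of 25 days, and the labels give no treatment. There is 1 group, so no conditions can be compared. Its libraries are labelled biological replicates 1 and 2 and come from separate tissue samples that carry the same donor identifier. Whether they are from different animals is therefore not settled by the labels, and each SD is the spread between these 2 samples. The tissue is described as a hippocampal layer, with neither the layer nor a cell type stated, so the values are averages over all cells of the dissection.

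MicroRNAs are cut from hairpins in longer transcripts, and 1 arm of the hairpin is usually kept as the guide that pairs with messenger RNAs through its seed, bases 2 to 8. The guides of the miR-29 family are the 3p arms. They are known to repress extracellular matrix genes such as collagens, the DNA methyltransferases Dnmt3a and Dnmt3b and, in neurons, pro-apoptotic genes of the BH3-only group. In the brain the family is known to increase as neurons mature after birth and to be abundant in astrocytes.

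The mature sequences decide which reads can be counted for each gene, so the guides are shown here as RefSeq gives them for GRCm38.p6, 5′ to 3′, with the seed in capitals.
miR-29a-3p: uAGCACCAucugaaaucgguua
miR-29b-3p: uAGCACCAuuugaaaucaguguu
miR-29c-3p: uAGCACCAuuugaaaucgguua
All share the seed AGCACCA, which no other mature microRNA among 1738 RefSeq entries holds. Counting positions from 1 at the 5′ end, miR-29a-3p and miR-29c-3p differ by C10U alone. From miR-29c-3p to miR-29b-3p the changes are G18A, U21G and A22U, so their first 17 bases are the same. miR-29b-3p ends in AGUGUU, a motif known to send it to the nucleus. Of the 1738 entries 3 end in these letters: miR-29b-3p at its 2 loci and miR-92b-5p.

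miR-29b-3p is made from both Mir29b-1 and Mir29b-2, whose hairpins share an identical run of 25 bases. A read of the whole guide therefore matches both places. The tables set reads with several places apart and give them to no gene, so the counts of Mir29b-1 and Mir29b-2 cannot hold such reads of miR-29b-3p. What separates these loci is mainly the other arm, shown for that reason with bases 2 to 8 in capitals.
miR-29b-1-5p: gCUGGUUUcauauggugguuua
miR-29b-2-5p: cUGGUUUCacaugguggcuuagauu
Aligned from the second base of miR-29b-1-5p, these arms differ at U11C and U19C (positions of miR-29b-1-5p), and each occurs at 1 locus. The Mir29a hairpin shares no more than 14 bases with any other microRNA hairpin in the table. For Mir29c the longest run is 22 bases, shared with Mir29b-1, and it does not cover the end of miR-29c-3p. Counts of Mir29a and Mir29c can thus hold their guides, whereas counts of the miR-29b genes leave out whole reads of the guide and are no measure of miR-29b. By sequence they would come mostly from the 5p arm, but the counts are not split by arm. Of 391 detected genes with a mature sequence in RefSeq, 39 are built like the miR-29b genes, with an arm shared with another gene and an arm that is not.

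The 4 genes lie in 2 clusters. In mm10, Mir29a (ENSMUSG00000065610.1) is on the minus strand of chromosome 6 from 31062660 to 31062747. Mir29b-1 (ENSMUSG00000065604.2) lies 275 bases away on the same strand, from 31063023 to 31063093. Its end overlaps an exon of the lincRNA Gm27019, and Mir29a overlaps no annotated gene. On the plus strand of chromosome 1, Mir29b-2 (ENSMUSG00000065412.3) runs from 195037040 to 195037120 and Mir29c (ENSMUSG00000065548.1) from 195037547 to 195037634, with 426 bases between them. Both are in an exon of the noncoding transcript A330023F24Rik and lie opposite an exon of Cd46 on the minus strand. No read was assigned to the opposite strand of any of the 4 genes in either library.

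Replicate 1 had 5481053 reads on the main strand of microRNA genes and replicate 2 had 4266963. Levels are given as counts per 1000000 of these reads (CPM), and a gene was called detected at 2 CPM or more in each library, which 433 genes reached. All 4 miR-29 genes were detected. A count of 0 allows up to 3 counts, or 0.547 CPM in replicate 1 and 0.703 in replicate 2, and intervals below are exact 95% intervals that cover counting error only. Of all reads, 41.9% in replicate 1 and 46.4% in replicate 2 were set apart as matching several places. By the other reads alone, 10 of 13 listed neuron-enriched genes were detected, beside 433 of all 2202 microRNA genes. Mir124a-2, Mir124a-3 and Mir9-2 were not detected. Reads set apart can hide a gene, so this count is no measure of neuronal content. The libraries also differed widely outside the family: relative to replicate 1, 22 of the 433 detected genes were more than 4-fold lower in replicate 2 (5.08%) and 45 more than 4-fold higher (10.4%). With TMM scaling or DESeq2 size factors in place of library totals, 38 were lower and 29 higher by that much. Which direction holds more genes thus depends on the scaling. The DESeq2 size factors were 1 and 1, and the TMM effective library sizes were 4839809 and 4832309. Both thus come close to comparing the counts directly and are not separate checks.

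Mir29a, the main source of miR-29 counts, had 40770 counts in replicate 1 and 1060 in replicate 2. That is 7438 CPM (95% Clopper-Pearson interval 7367 to 7511) and 248 CPM (234 to 264), a mean of 3843 ± 5084 CPM (SD, n = 2). It ranked 30 among all microRNA genes in replicate 1 and 174 in replicate 2. The SD exceeds the mean, so the mean describes neither library. The level in replicate 2 was 29.9-fold lower (28.2 to 31.9), and among the 433 detected genes only 1 had a more negative log2 ratio.

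Mir29c followed with 3861 and 510 counts, or 704 CPM (682 to 727) in replicate 1 and 119.5 CPM (109 to 130) in replicate 2. Its mean was 412 ± 414 CPM (SD, n = 2). Replicate 2 was 5.89-fold lower (5.37 to 6.48). Mir29c gives rise to a guide that differs from that of Mir29a by the base at position 10, yet the libraries stood much closer for it than for Mir29a.

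The miR-29b genes were the lowest of the family in both libraries, as far as reads of their unshared sequence show. Mir29b-2 had 454 and 51 counts, which is 82.8 CPM (75.4 to 90.8) in replicate 1 and 11.95 CPM (8.90 to 15.7) in replicate 2. It was 6.93-fold lower in replicate 2 (5.18 to 9.45), with a mean of 47.4 ± 50.1 CPM (SD, n = 2). Mir29b-1 had 320 and 76 counts, or 58.4 CPM (52.2 to 65.1) and 17.8 CPM (14.03 to 22.3), with a mean of 38.1 ± 28.7 CPM (SD, n = 2). It differed least, at 3.28-fold lower (2.55 to 4.27).

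**Figure D1:**
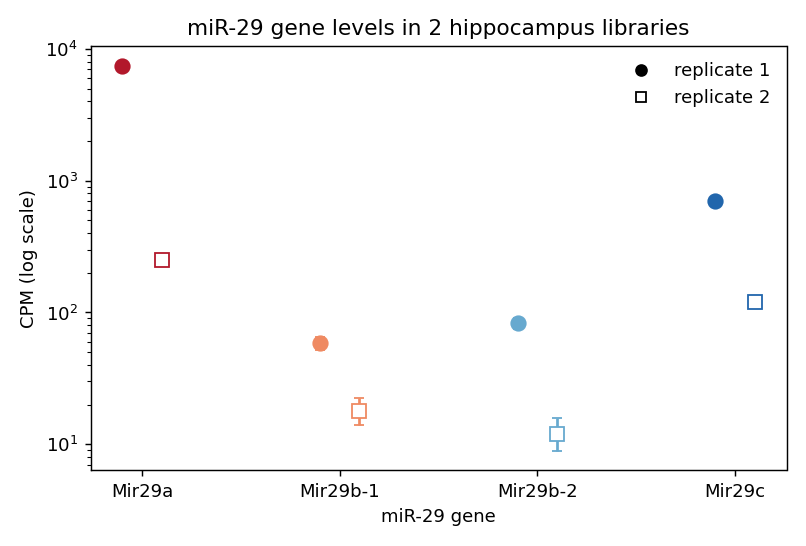
CPM of each miR-29 gene in replicate 1 (filled circles) and replicate 2 (open squares) on a log scale, with exact 95% intervals from the counts, which are smaller than the symbols where they cannot be seen. Every gene is lower in replicate 2, from 7438 to 248 CPM for Mir29a and from 58.4 to 17.8 CPM for Mir29b-1.

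All 4 genes were thus lower in replicate 2, and 3 of them by more than 4-fold, beside 5.08% of all detected genes. By any amount, 39.3% of detected genes were lower in replicate 2. This pattern was known when the family was chosen, so it is a description of the 2 libraries without a test. By counts, the order Mir29a, then Mir29c, then the miR-29b genes held in both libraries. The order of Mir29b-2 and Mir29b-1 did not. Mir29b-2 had 1.42 times the counts of Mir29b-1 in replicate 1 (1.23 to 1.64) and 0.671 times in replicate 2 (0.461 to 0.969). Counts of the miR-29b genes leave out whole reads of their guide, so their last place does not rank the mature microRNAs. In bulk tissue, fewer cells that express a gene and less of its RNA per cell cannot be told apart.

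**Figure D2:**
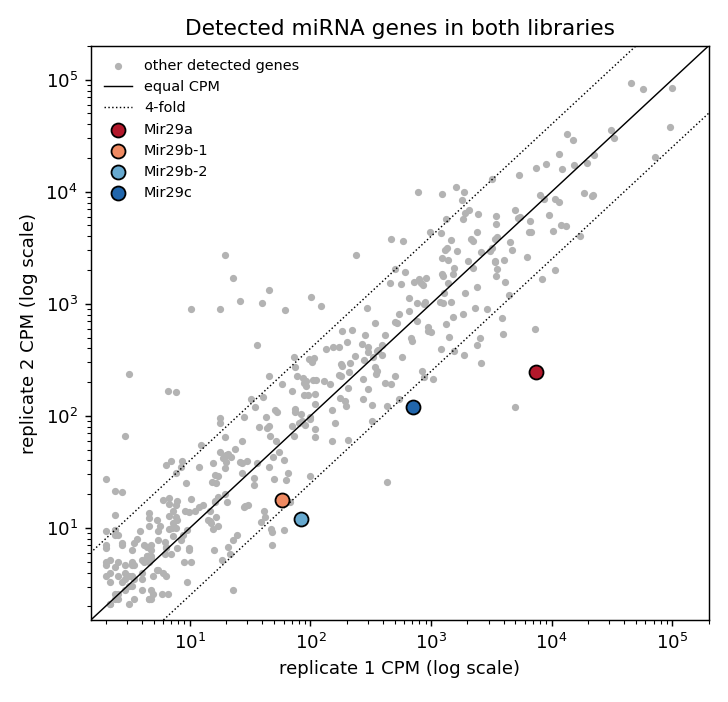
CPM in replicate 1 against replicate 2 for the 433 detected microRNA genes, both on log scales, with the line of equal CPM and dotted lines at 4-fold. Mir29a, Mir29b-2 and Mir29c lie below the lower dotted line and Mir29b-1, at 3.28-fold, just above it.

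Together the family held 45405 counts, 0.828% of the microRNA counts in replicate 1 (95% Clopper-Pearson interval 0.821 to 0.836), and 1697 counts, 0.0398% (0.0379 to 0.0417), in replicate 2. The mean share was 0.434% ± 0.558 (SD, n = 2). The summed level was 20.8-fold lower in replicate 2 (19.8 to 21.9). Without Mir29a it was 845.6 CPM in replicate 1 and 149 CPM in replicate 2, still 5.66-fold lower (5.21 to 6.16). These totals leave out whole reads of miR-29b-3p, which match several places, so they are no measure of the whole family. The make-up of the counts also differed. Mir29a gave 89.8% of the family counts in replicate 1 (89.5 to 90.1) and 62.5% in replicate 2 (60.1 to 64.8). Mir29c gave 8.50% (8.25 to 8.76) and 30.1% (27.9 to 32.3).

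Genes of a microRNA cluster usually come from the same primary transcript, so the ratio within each cluster was compared. On chromosome 6, Mir29a had 127 counts for each count of Mir29b-1 in replicate 1 (114 to 143) and 13.9 in replicate 2 (11.04 to 17.8). The ratio was 9.13 times as high in replicate 1 (conditional odds ratio, 95% interval 6.96 to 11.9). On chromosome 1, Mir29c had 8.50 counts for each of Mir29b-2 in replicate 1 (7.71 to 9.39) and 10 in replicate 2 (7.49 to 13.6). There the odds ratio was 0.850 (0.615 to 1.16). These intervals cover counting error only and not the spread between samples, and the pairs were named when the members were chosen, so both ratios describe these 2 libraries. Over the 2 libraries the ratio was 70.7 ± 80.2 on chromosome 6 and 9.25 ± 1.06 on chromosome 1 (SD, n = 2). In both clusters the ratio sets a gene whose counts can hold its guide against a miR-29b gene whose counts leave out whole reads of the guide.

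The same was computed for every pair of neighbouring detected microRNA genes on the same strand with at most 10 kb between them, 108 pairs in all. Their log2 ratios of replicate 2 over replicate 1 differed by a median of 0.79, and in 72 pairs both genes lay on the same side of 0. The difference of 3.24 between Mir29a and Mir29b-1 was the fifth in size. Larger ones were found for Mir134 and Mir668 (4.61), Mir497 and Mir195a (4.04), Mir667 and Mir376c (3.95), and Mir181a-2 and Mir181b-2 (3.37, named after its value was seen). The difference between Mir29b-2 and Mir29c was 0.15, rank 99 of 108. The miR-29 family thus contains a pair with a large gap and a pair with a small one.

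**Figure D3:**
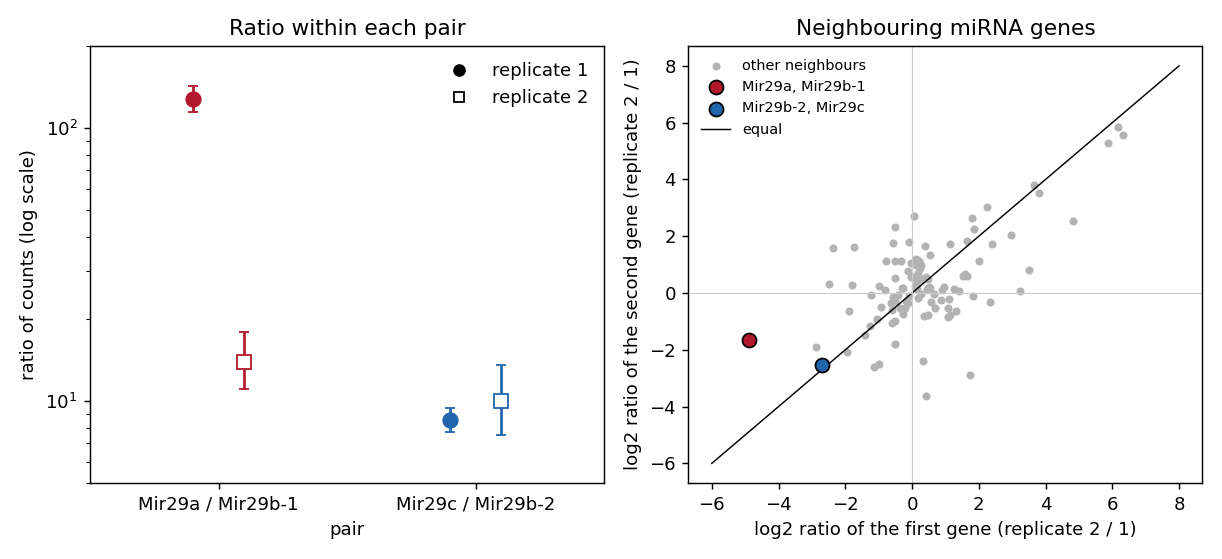
Left, counts of Mir29a per count of Mir29b-1 and of Mir29c per count of Mir29b-2 in each library on a log scale, with exact 95% intervals. Right, log2 ratio (replicate 2 over replicate 1) of the gene with the lower coordinate against that of its neighbour for 108 neighbouring pairs, where the pair of Mir29a and Mir29b-1 lies away from the line of equal ratios (-4.90 and -1.66) and that of Mir29b-2 and Mir29c lies on it (-2.69 and -2.55).

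The detected microRNA genes nearest to the clusters did not share their direction. On chromosome 6, Mir335 lies 321 kb below the cluster and had 1903 CPM in replicate 1 and 6479 CPM in replicate 2. Mir490, 5359 kb above it, had 121.5 and 947 CPM. On chromosome 1 the nearest below was Mir205, a microRNA of epithelia, at 2.37 and 13.1 CPM, and none was detected above. All of these were higher in replicate 2, where the miR-29 genes were lower. With library totals 263 of the 433 detected genes were higher in replicate 2, so the neighbours went the way of most genes.

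Detected genes were also grouped by shared seed. The 4 genes with the seed AGCACCA were all more than 2-fold lower in replicate 2, beside 15.7% of single detected genes. Among 20 seeds found in at least 3 detected genes no other had all its genes that much lower, with library totals, TMM scaling or DESeq2 size factors. The family was chosen with this known, and the counts of its miR-29b genes leave out whole reads of the guide that carries the seed, so nothing is drawn from it. For 2 seeds all genes were more than 2-fold higher, beside 27.7% of single detected genes: AAAGUGC of the miR-17 family and AAUACUG of the miR-200 family. The median log2 ratio of the miR-29 genes was -2.62, against 0.27 over all detected genes.

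Other microRNAs known to rise as the brain matures were given by a list of 11 genes, all detected. The list is a selection and not a full set, so its values depend on which genes it holds. It overlaps the cell type lists below. Mir128-1, Mir128-2, Mir138-1 and Mir138-2 are also listed as neuron-enriched, and Mir219a-2 and Mir338 as oligodendrocyte genes. Of the 11 genes 9 were lower in replicate 2, beside 39.3% of detected genes, with a median log2 ratio of -1.71 against 0.27. By more than 4-fold 3 were lower, beside 5.08% of detected genes, and 6 with TMM scaling or DESeq2 size factors. Mir219a-2, which promotes oligodendrocyte differentiation, was the detected gene with a more negative log2 ratio than Mir29a, at 4960 CPM in replicate 1 and 119 in replicate 2. Mir219a-1, which is not on this list, was higher in replicate 2, at 54.8 CPM against 12.4. With library totals the other listed genes more than 4-fold lower were Mir132, which neuronal activity induces, at 17142 and 4038 CPM, and Mir195a at 7277 and 590 CPM. Mir128-1 and Mir128-2, neuronal microRNAs, were higher in replicate 2, at 21819 CPM against 11606 and at 6393 CPM against 2470. Mir219a-2, Mir138-1, Mir138-2 and Mir128-1 each share at least 22 bases with 1 other microRNA gene, so their counts are uncertain. Shared bases were not counted for Mir128-2 and Mir219a-1, so their counts are not shown to be free of this limit.

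MicroRNAs of progenitor and dividing cells stood on the opposite side. Of 11 listed genes 9 were detected, and all 9 were higher in replicate 2, beside 263 of the 433 detected genes with library totals. Their median log2 ratio was 3.02, and 7 of them were past 4-fold, beside 10.4% of detected genes. The 9 genes lie in clusters of neighbours on chromosomes 14, 5 and 16, so they are not independent. Mir17 had 782 and 9932 CPM and Mir93 had 1791 and 8477 CPM. These lists, like the family itself, were drawn up with earlier results of these data known, so their directions are not independent evidence.

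Cell type lists also differed between the libraries. Beside them, 170 of the 433 detected genes were lower in replicate 2 (39.3%) and 263 higher with library totals. With TMM scaling 221 were lower and 212 higher. The 7 astrocyte-enriched genes were all detected and all lower in replicate 2, with a median log2 ratio of -0.57 and a summed level of 30327 CPM in replicate 1 and 14439 in replicate 2. Mir23b (21825 and 9122 CPM) and Mir23a (6479 and 4361 CPM) were the most abundant. Mir23b, Mir27b and Mir24-1 are neighbours, as are Mir23a, Mir27a and Mir24-2, so these genes are not independent. Mir24-1, the only astrocyte-enriched gene past 4-fold, shares at least 22 bases with 1 other microRNA gene, so its counts are uncertain. Of the others, shared bases were counted only for Mir23a and Mir23b. Of 3 oligodendrocyte genes 2 were lower and 1, Mir219a-1, was higher. Their sum went from 6503 to 939 CPM, mostly through Mir219a-2. The endothelial and mural sum was 21958 CPM and 12895 CPM, with all 3 genes lower in replicate 2. The neuron-enriched list had 8 detected genes higher and 2 lower and a summed level of 42220 and 79223 CPM. Like the other sums, this one leaves out reads that match several places, so it can miss guides made at several loci. The uncertainty stated above for Mir128-1, Mir138-1 and Mir138-2 holds for this sum too. Mir124a-1 had 3.28 and 4.69 CPM and Mir9-1 had 20.1 and 44.8 CPM, and shared bases were not counted for either. Epithelial genes summed to 74.8 CPM in replicate 1 and 5837 in replicate 2. The microglia and immune list summed to 1986 and 1099 CPM, although 3 of its genes were higher in replicate 2 and 2 lower. Its median log2 ratio was 1.05. The choroid plexus and ciliated list summed to 983 and 2303 CPM, with all 4 detected genes higher in replicate 2. The erythroid list summed to 88.1 and 65.9 CPM, with 2 genes lower and 1 higher. No gene on these lists was at 0 in both libraries, and their part in the miR-29 values was not tested.

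**Figure D4:**
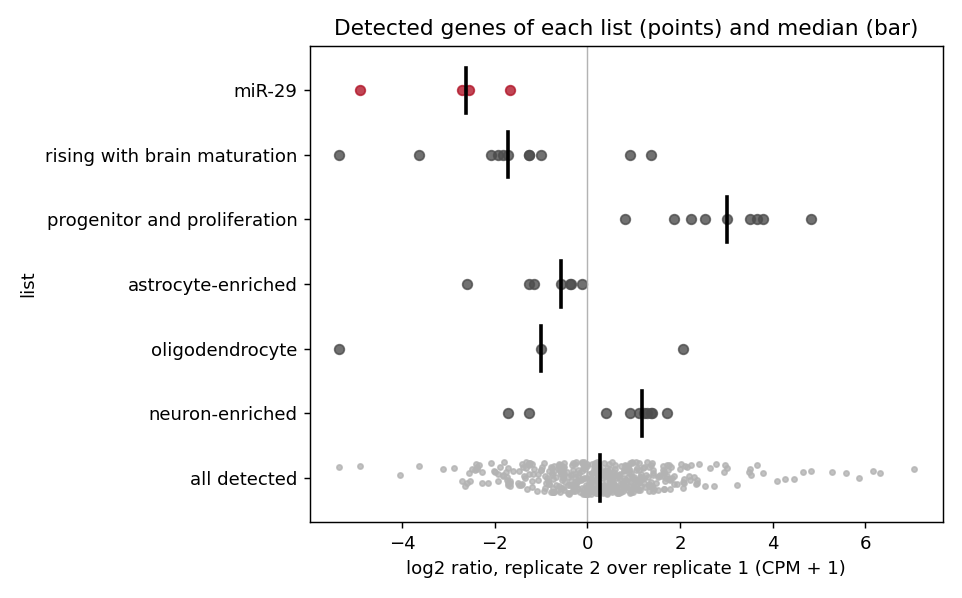
Log2 ratio of replicate 2 over replicate 1, on CPM + 1, for the detected genes of the family, of 5 lists and of all detected genes, where each point is a gene and each bar the median. The 4 miR-29 genes lie between -4.90 and -1.66 and the 9 progenitor and proliferation genes above 0.

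The genes most like each member were those nearest in log2(CPM + 1) over the 2 libraries. For Mir29a they were Mir219a-2, Mir195a and Mir668, at distances of 1.20, 1.25 and 1.43, so no gene lay close to it. Mir29c had nearer ones in Mir212, the neighbour of Mir132 (539 and 140 CPM, distance 0.45), in the p53 target Mir34a (435 and 123 CPM, 0.69) and in Mir702 (0.91). Mir29b-1 was nearest to Mir491 (67.3 and 16.9 CPM, distance 0.22), then to the entry Snord43 (0.58) and the erythroid Mir451a (0.58). Mir29b-2 was nearest to Mir7044 (0.53), Mir491 (0.55) and Mir344b (0.85). With only 2 libraries many genes can lie near each other by level alone.

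The hairpins of the family are low in GC, from 35.2% for Mir29b-1 through 38.6% for Mir29a and 39.5% for Mir29b-2 to 44.3% for Mir29c, against a median of 52.3% over detected genes. Across the 433 detected genes, which share the libraries and are not independent, GC content and log2 ratio had a Spearman rho of -0.18 and a Pearson r of -0.15. The 89 other detected genes with GC no higher than that of Mir29c had a median log2 ratio of 0.66, beside 0.27 over all 433. Of these 89, 2 were more than 4-fold lower in replicate 2 (2.25%, beside 5.08% of all) and 12 more than 4-fold higher (13.5%, beside 10.4%). The part of GC content in the miR-29 values was not tested.

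**Figure D5:**
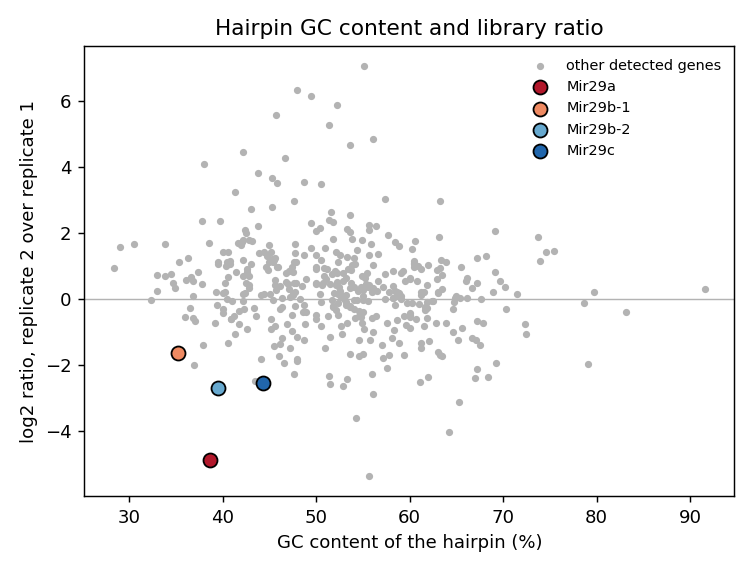
GC content of the annotated hairpin in percent against the log2 ratio of replicate 2 over replicate 1 for the 433 detected genes. The miR-29 genes, with GC between 35.2% and 44.3%, lie below 0, and the 89 other genes up to that limit have a median of 0.66.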

How the data were processed

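Short RNA libraries from 2 hippocampus samples of 1 group were read from the count tables the authors deposited. Per the text deposited with each table, the assembly was mm10 and the annotation GENCODE M21, and the sources used here name no aligner, trimming or counting settings. The deposited values are whole-number read counts in 3 unnamed columns. The second, which holds nearly all reads at microRNA genes, was taken as the main strand, and the first as counts without strand. The 4 rows that name no gene stayed out of library sizes; the reads they hold that match several places are 41.9% and 46.4% of all reads. Whether reads from CAST/EiJ chromosomes were placed on mm10 less often was not analysed here.

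All 2202 identifiers matched GENCODE M21. CPM were computed over the gene rows of the main column. Log2 ratios use CPM + 1 and folds are ratios of CPM. Intervals are exact (scipy 1.17.1, Python 3.11.15) and those of CPM ratios were tested on simulated data. Scaling alternatives used edgeR 4.0.16 (TMM) and DESeq2 1.42.0 size factors, in R 4.3.3. Mature sequences came from RefSeq (GRCm38.p6), where 1032 of the 2202 genes matched by symbol, and hairpins from GENCODE M21 transcripts. No test was run, because there is 1 group and the members were chosen with their values known. The members, the 10 lists and the rules were chosen with earlier results of these data known. Genes named outside the family are the 3 most alike for each member, the 2 most abundant detected of a list, the 3 neighbour pairs that differ most and the nearest detected genes beside the clusters. Others, such as those past 4-fold in the maturation list, were named after their values were seen.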

Additional observations from a re-analysis of the deposited data

How the results depend on the processing

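All 28 alternative log2 ratios of the 4 genes stayed below 0. For Mir29a the log2 ratio of -4.90 became -5.26 with TMM, -5.26 with DESeq2 size factors, -5.07 with all reads in the table as denominator and -5.08 with gene rows plus reads that match several places. For Mir29c the value of -2.55 became -2.91, -2.91, -2.71 and -2.72 in the same order. These shifts come from the denominators, since TMM and DESeq2 size factors move the median log2 ratio of all detected genes by -0.33 each and the other denominators by -0.18 and -0.19. The number of miR-29 genes more than 4-fold lower in replicate 2 was 3, and 4 with either scaling or with a 2-fold limit, but 1 with an 8-fold limit (1.39% of detected genes). With either scaling 38 detected genes were more than 4-fold lower and 29 higher (43.3% higher), against 22 and 45 (67.2% higher) with library totals, and the maturation list had 6 genes more than 4-fold lower in place of 3. The oligodendrocyte list then had none more than 4-fold higher in place of 1. The number of genes lower and higher in each of the 10 lists was the same with both scalings. Of 57 alternatives that keep both libraries, 48 lay within the limit set for them. This limit was the SD for levels, pair ratios and the share, and the counting interval for log2 ratios. For the number of genes it was a fold limit. The SD of the levels is wide beside the mean (5084 against 3843 CPM for Mir29a). Levels could thus hardly fall outside it, and nothing is drawn from that count. Leaving out a library leaves the value of the other, from 248 to 7438 CPM for Mir29a. The column without strand gave the same counts for all 4 genes. No paired analysis was possible because there is 1 group. With 51 counts, the level of Mir29b-2 in replicate 2 is the least precise.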
